A study of Mus musculus with 7 samples.

Results

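Expression of 10 marker genes of liver endothelial cells was compared between Rbpj+/+ and Rbpj-/- whole liver. The genes were taken from the array by name, as every non-control probe whose gene name was Stab2, Lyve1, Clec4g, Pecam1, Cdh5, Eng, Kdr, Tek, Tie1 or Vwf. This gave 11 of the 55681 non-control probes, because Kdr has 2 probes and the other 9 genes have 1 each. All 10 genes passed the detection filter and belong to the 18782 genes tested, and Tek passed it only through Rbpj-/- liver, where it was high.

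The samples were whole livers of untreated C57BL/6J mice at the age of 4 weeks, 4 Rbpj+/+ animals labelled +/+_1155, +/+_1156, +/+_1024 and +/+_991 without cholestasis and 3 Rbpj-/- animals labelled -/-_N3, -/-_N5 and -/-_2866 with cholestatic livers. RBPJ is the DNA-binding factor through which Notch receptors act on their target genes. According to the study's methods, Rbpj-/- animals carried a floxed Rbpj allele on both chromosomes together with AlfpCre, a transgene that is active in the hepatoblast lineage, from which hepatocytes and bile duct cells arise. The Rbpj+/+ animals carried the same floxed allele on both chromosomes without AlfpCre. Values of single animals are given in this order throughout. Each animal had 1 array of 1 dye, all on 1 slide, with the Rbpj+/+ arrays in one row of the slide and the Rbpj-/- arrays in the other, so row and genotype cannot be told apart.

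Endothelial cells line the blood vessels. In the liver, most of them form the wall of the sinusoids, the narrow channels between plates of hepatocytes, where they carry open pores, lack a continuous basement membrane and take up waste molecules from blood through scavenger receptors and lectins. The endothelium of the portal and central vessels is continuous and resembles that of other organs. Of the genes studied, Stab2, Lyve1 and Clec4g mark sinusoidal cells and are called sinusoidal here. The other 7, called vascular here, are shared by most endothelium, sinusoids included, except that Vwf is highest in larger vessels.

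Signals are given as log2 intensity relative to the 75th percentile of the same array, so 0 marks a probe as bright as that percentile and a difference of 1 is a 2-fold change. Signals of different probes depend on the probe and were not ranked against each other. The 75th percentile itself lay at intensities of 57.5 to 103 on Rbpj+/+ arrays and 118 to 143 on Rbpj-/- arrays. Between 41.1% and 64.9% of probes were well above background, most on +/+_1156 and -/-_N3, whose dim probes were brighter than on the other arrays. A gene was called at an adjusted p below 0.1 in limma, the false discovery rate of the study's methods. The deleted gene was checked first. Rbpj stood at 0.97, 0.29, 0.33 and 0.81 in the Rbpj+/+ animals, and at -0.35, -0.78 and -0.48 in the Rbpj-/- animals. It was lower in every Rbpj-/- animal and fell by 1.13 on the log2 scale (SE 0.24, limma adjusted p = 0.0115). A dimmer probe, which the array design places on chromosome 6, changed by -1.63 on average with overlapping genotypes (limma adjusted p = 0.0723). Whether the first probe lies in the deleted part of the gene is not given in the sources used here.

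Of the 10 endothelial genes, 6 rose in Rbpj-/- liver, Vwf, Tek, Clec4g, Tie1, Cdh5 and Eng. The rises ran from 1.46-fold for Eng to 3.89-fold for Vwf. Without the filter on dim probes, 2 of the 10 rose, Vwf and Tie1, while the calls over all genes fell from 6415 to 1642. Kdr was called lower by its brighter probe, 2.27-fold, while its other probe did not move. Stab2, Lyve1 and Pecam1 were not called. Over all tested genes 34.2% were called, 14.6% higher and 19.6% lower, and the median log2 change was -0.13. In 7 of the 10 endothelial genes the genotypes did not overlap, 6 of them higher and 1 lower in Rbpj-/- liver, against 36.5% of all tested genes, 15.4% higher and 21.1% lower. The 1 lower gene is Kdr by its 1-spot probe. By its other probe the genotypes overlap and 6 of the 10 genes, none of them lower, do not overlap. The genes were chosen with earlier results of these data known, so these counts describe them and nothing is read from their excess over the background. In whole liver, a change in the number of endothelial cells and a change in RNA per cell cannot be told apart. The limma p-values set the genotype difference against the spread between animals of 1 genotype, drawn toward that of all tested probes. They do not separate genotype from slide row.

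**Figure D1:**
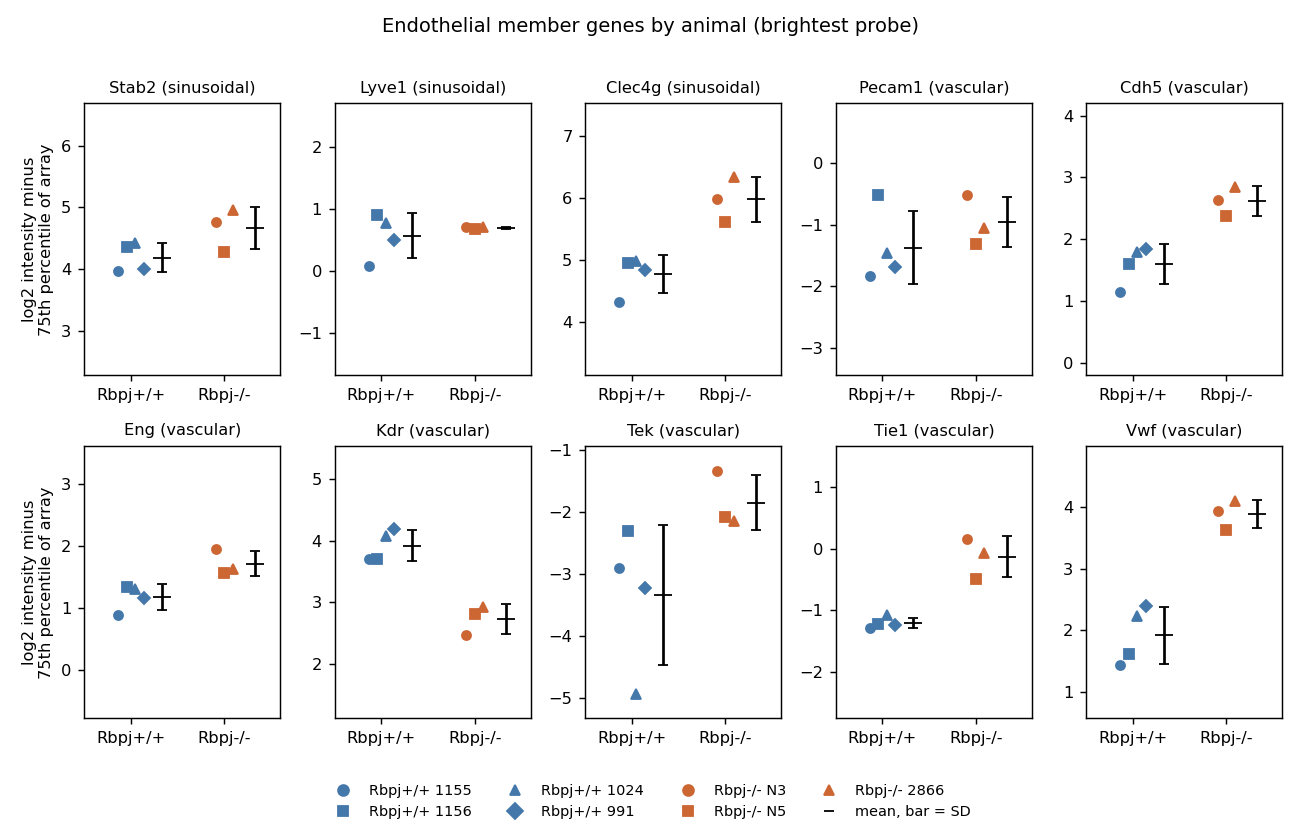
Signal of each endothelial gene in every animal, as log2 intensity minus the 75th percentile of its array (y axis, the same span in all panels), with Rbpj+/+ animals in blue and Rbpj-/- animals in orange, and the mean with its SD as a bar beside them. All Rbpj-/- animals lie above all Rbpj+/+ animals for Vwf, Tie1, Tek, Clec4g, Cdh5 and Eng and below them for the 1-spot probe of Kdr, 1 of its 2 disagreeing probes, and the genotypes overlap for Stab2, Lyve1 and Pecam1.

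Among the sinusoidal genes, Clec4g rose and the other two were not called. Clec4g encodes LSECtin, a C-type lectin of sinusoidal cells that binds glycans and contacts T cells. Its signal, from a probe at chr8:3716182-3716241 of mm9, was 4.32, 4.95, 4.99 and 4.84 in the Rbpj+/+ animals and 5.99, 5.61 and 6.34 in the Rbpj-/- animals. Every Rbpj-/- animal was above every Rbpj+/+ animal, and +/+_1155 was the lowest of its genotype. The means were 4.77 ± 0.31 (SD, n = 4) and 5.98 ± 0.36 (SD, n = 3), a rise of 1.21 on the log2 scale (SE 0.25) or 2.31-fold with a 95% interval of 1.56 to 3.42 (limma adjusted p = 0.0114). The exact two-sided permutation p was 0.0286, the smallest that 4 against 3 animals can give.

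Stab2 encodes stabilin-2, the scavenger receptor through which sinusoidal cells clear hyaluronan and other ligands. It was read at chr10:86303982-86304041 and stood at 3.97, 4.36, 4.43 and 4.00 in the Rbpj+/+ animals and at 4.76, 4.28 and 4.95 in the Rbpj-/- animals. -/-_N5 fell among the Rbpj+/+ animals, while -/-_N3 and -/-_2866 were above all of them. The log2 difference was 0.48 (SE 0.23, 95% interval -0.04 to 1.0003, limma adjusted p = 0.162, exact permutation p = 0.143). As a fold, the interval reaches from 0.970 to 2.0004 times the level of Rbpj+/+ liver.

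Lyve1 encodes a hyaluronan receptor of sinusoidal and lymphatic endothelium. Its signal at chr7:117994171-117994230 was 0.09, 0.91, 0.78 and 0.49 in the Rbpj+/+ animals and 0.70, 0.68 and 0.71 in the Rbpj-/- animals. The Rbpj-/- values lay close together and inside the Rbpj+/+ range. The difference was 0.13 (SE 0.23, 95% interval -0.39 to 0.65, limma adjusted p = 0.709, exact permutation p = 0.686), so a change of up to 1.57-fold upwards was within the interval.

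Among the vascular genes, the adhesion molecules and the secreted factor are described first. Vwf encodes von Willebrand factor, which endothelial cells store and release and which tethers platelets to damaged vessel walls. It showed the largest change of the 10 genes. Its signal at chr6:125636551-125636610 was 1.44, 1.62, 2.24 and 2.39 in the Rbpj+/+ animals and 3.93, 3.63 and 4.09 in the Rbpj-/- animals. The highest Rbpj+/+ animal stayed 1.24 below the lowest Rbpj-/- animal. The means were 1.92 ± 0.46 (SD, n = 4) and 3.88 ± 0.23 (SD, n = 3), and the rise was 1.96 (SE 0.27) or 3.89-fold with a 95% interval of 2.53 to 5.99 (limma adjusted p = 0.00251). The exact permutation p was 0.0286.

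Vwf is also made by megakaryocytes and carried by platelets, as is Pecam1. Of 8 megakaryocyte and platelet genes, 4 passed the detection filter and 1 was called, Pf4, which rose by 1.28 (limma adjusted p = 0.0189). Ppbp and Gp9 changed by -0.27 and -0.14 without being called. Itga2b, Gp1ba, Gp1bb and Gp6 were too dim in both genotypes to be tested. The summed linear signal of the 4 genes was 2.30 to 4.71 in Rbpj+/+ and 5.58 to 8.35 in Rbpj-/- animals. Pf4, the brightest of them, weighs most in this sum. The part of these cells in the result was not tested.

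Cdh5 encodes VE-cadherin, the cadherin of endothelial junctions. It was read at chr8:106668159-106668218 as 1.14, 1.61, 1.79 and 1.85 in the Rbpj+/+ animals and 2.63, 2.38 and 2.85 in the Rbpj-/- animals. The genotypes did not overlap, and +/+_1155 was again the lowest animal. The signal rose by 1.02 (SE 0.23) or 2.03-fold with a 95% interval of 1.41 to 2.93 (limma adjusted p = 0.0159, exact permutation p = 0.0286).

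Pecam1 encodes CD31, an adhesion molecule of endothelial junctions that platelets and leukocytes share. Its probe at chr11:106540864-106540923, printed in 2 spots, gave -1.83, -0.52, -1.46 and -1.69 in the Rbpj+/+ animals and -0.51, -1.31 and -1.05 in the Rbpj-/- animals. The highest animal of each genotype was +/+_1156 and -/-_N3, the arrays with the brighter dim probes. The difference was 0.42 (SE 0.34, 95% interval -0.36 to 1.19, limma adjusted p = 0.399, exact permutation p = 0.343). Without +/+_1156 the difference was 0.70 and passed the threshold (limma adjusted p = 0.0733).

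The receptors of the endothelium come next. Tie1 and Tek (TIE2) form the angiopoietin receptor system, in which Tek binds the angiopoietins and Tie1, with no well-settled ligand, modulates it. Their probes lie in the coding part of these related genes, so both are shown here to let their likeness be seen, 5′ to 3′ as on the array, with the 39 of 60 bases that are identical in capitals once the Tek probe is moved by 3 bases.
Tie1: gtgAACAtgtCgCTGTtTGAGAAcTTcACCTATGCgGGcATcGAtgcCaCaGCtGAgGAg
Tek: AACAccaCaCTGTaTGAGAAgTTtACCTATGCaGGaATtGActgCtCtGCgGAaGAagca

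Tie1, read at chr4:118144132-118144191, was -1.28, -1.22, -1.08 and -1.23 in the Rbpj+/+ animals and 0.16, -0.49 and -0.07 in the Rbpj-/- animals. The Rbpj+/+ animals lay within 0.20 of each other and below every Rbpj-/- animal. The means were -1.20 ± 0.09 (SD, n = 4) and -0.13 ± 0.33 (SD, n = 3), a rise of 1.07 (SE 0.21) or 2.10-fold with a 95% interval of 1.52 to 2.89 (limma adjusted p = 0.00868, exact permutation p = 0.0286).

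Tek, read at chr4:94540624-94540683, was dim. Its signal was -2.91, -2.30, -4.94 and -3.23 in the Rbpj+/+ animals, only 2 of which were well above background, and -1.33, -2.07 and -2.14 in the Rbpj-/- animals, which all were. The genotypes did not overlap, with 0.16 between +/+_1156 and -/-_2866, and the low value of +/+_1024 set most of the Rbpj+/+ spread. The log2 difference was 1.50 (SE 0.55) or 2.83-fold with a 95% interval of 1.19 to 6.72 (limma adjusted p = 0.0804, exact permutation p = 0.0571). The call was lost in 10 of 19 other ways of processing, and the difference shrank to 0.06 when the background was corrected by normexp (limma adjusted p = 0.756).

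Eng encodes endoglin, a co-receptor for BMP9 and related ligands of the TGF-beta family. Its signal at chr2:32537268-32537327 was 0.88, 1.34, 1.32 and 1.16 in the Rbpj+/+ animals and 1.95, 1.57 and 1.63 in the Rbpj-/- animals. The genotypes did not overlap, with a gap of 0.23 between +/+_1156 and -/-_N5. The rise was 0.54 (SE 0.20) or 1.46-fold with a 95% interval of 1.06 to 1.998 (limma adjusted p = 0.0824, exact permutation p = 0.0286). The call was lost in 13 of 20 other ways of processing, among them leaving out any 1 animal except +/+_1156, with adjusted p from 0.126 to 0.240. Macrophages and stellate cells can express Eng too, and the summed signals of their markers were higher in Rbpj-/- liver, as given with the other cell types.

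**Figure D2:**
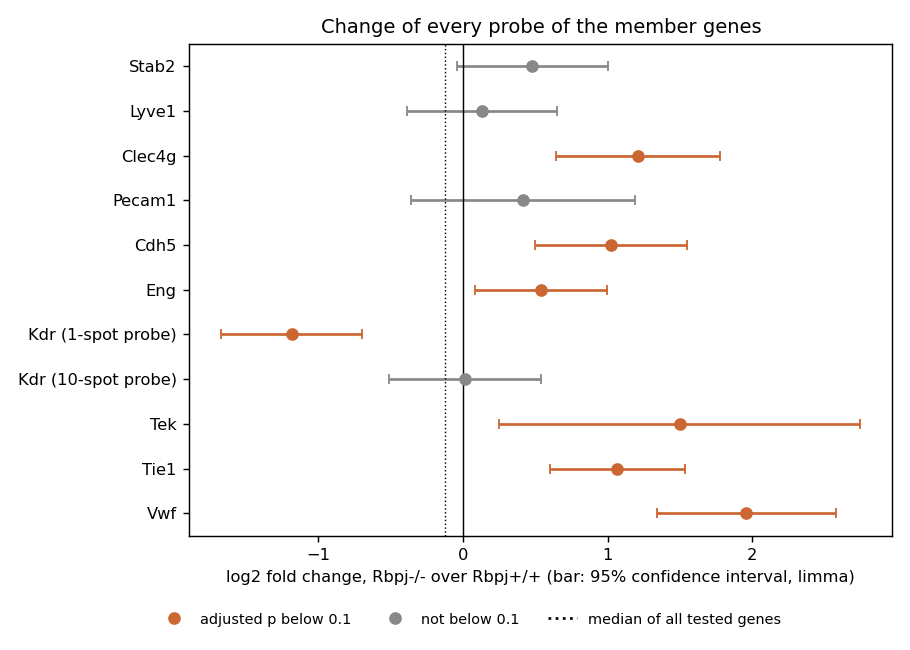
Log2 change of each of the 11 probes in Rbpj-/- over Rbpj+/+ liver (x axis), with the 95% confidence interval of limma as a bar, in orange where the adjusted p was below 0.1. Vwf stands farthest to the right at 1.96, the bars of Stab2, Lyve1, Pecam1 and the 10-spot probe of Kdr cross 0, and the 1-spot probe of Kdr lies at -1.19, with the median of all tested genes dotted at -0.13.

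Kdr encodes VEGFR2, the main receptor for VEGF-A on endothelial cells, and its 2 probes gave different answers. The brighter probe on average, printed in 1 spot and placed at chr5:76330395-76330454, read 3.70, 3.71, 4.08 and 4.18 in the Rbpj+/+ animals and 2.47, 2.81 and 2.92 in the Rbpj-/- animals. All Rbpj-/- animals were below all Rbpj+/+ animals. The signal fell by 1.19 (SE 0.21), which is 2.27-fold (limma adjusted p = 0.00689, exact permutation p = 0.0286).

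The second probe of Kdr, printed in 10 spots at chr5:76329309-76329368, read 2.86, 3.52, 3.47 and 3.36 in the Rbpj+/+ animals and 3.37, 3.03 and 3.55 in the Rbpj-/- animals. The genotypes overlapped over most of their range. The difference was 0.01 (SE 0.23, 95% interval -0.51 to 0.54, limma adjusted p = 0.973, exact permutation p = 0.886). The interval of the 1-spot probe, -1.67 to -0.70, does not meet it.

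The genotypes were also compared on the difference between both probes. The 1-spot probe minus the 10-spot probe was 0.84, 0.19, 0.61 and 0.82 in the Rbpj+/+ animals and -0.90, -0.22 and -0.62 in the Rbpj-/- animals. All Rbpj-/- animals were below all Rbpj+/+ animals. The level of this difference depends on the probes, and its shift between genotypes is what is read here. Its means were 0.61 ± 0.30 (SD, n = 4) and -0.58 ± 0.34 (SD, n = 3), apart by 1.20 (exact permutation p = 0.0286). Both probes carry the same transcript record and lie 1026 bases apart. The 10-spot mean averages spot noise, whereas the other probe rests on 1 spot per array.

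No direction for Kdr as a gene is therefore given. The 1-spot probe fell by between 1.05 and 1.28 when any 1 animal was left out, and the 10-spot probe ranged from -0.14 to 0.15. The brighter of the probes is the 1-spot probe by a small margin, and the 10-spot probe became the brighter without +/+_1155 or without +/+_991, so that the value read for the gene turned to -0.14 (limma adjusted p = 0.682) and 0.03 (limma adjusted p = 0.946).

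**Figure D3:**
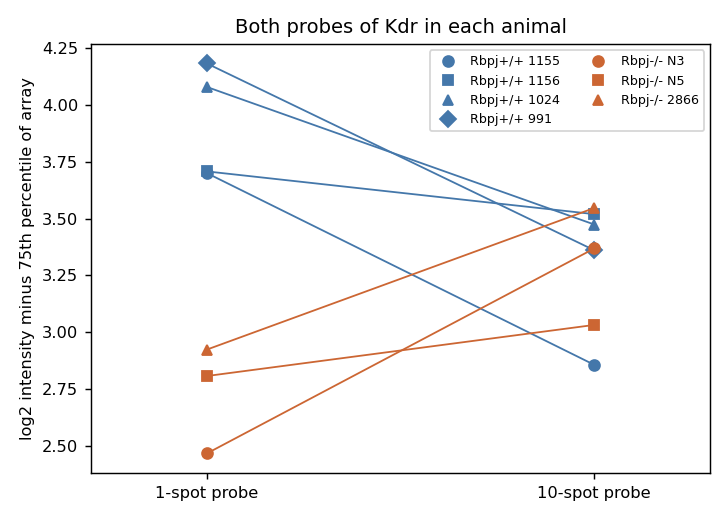
Signal of both Kdr probes in each animal, as log2 intensity minus the 75th percentile of the array (y axis), joined by a line per animal. The genotypes separate on the 1-spot probe, with the 4 Rbpj+/+ animals (blue) above the 3 Rbpj-/- animals (orange), and overlap on the 10-spot probe.

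The sinusoidal and the vascular genes were set against each other in each animal. For every animal, the signal minus the Rbpj+/+ mean was averaged over Stab2, Lyve1 and Clec4g and over the 7 vascular genes. The sinusoidal shift was -0.38, 0.23, 0.22 and -0.07 in the Rbpj+/+ animals and 0.64, 0.35 and 0.82 in the Rbpj-/- animals. The vascular shift was -0.22, 0.22, -0.11 and 0.11 in the Rbpj+/+ animals and 0.94, 0.55 and 0.79 in the Rbpj-/- animals. Both lay higher in each Rbpj-/- animal than in any Rbpj+/+ animal, with Rbpj-/- means of 0.61 ± 0.24 and 0.76 ± 0.20 (SD, n = 3).

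The sinusoidal shift minus the vascular shift was -0.30, -0.20 and 0.03 in the Rbpj-/- animals, with a mean of -0.16 ± 0.17 (SD, n = 3). In the Rbpj+/+ animals it ranged from -0.17 to 0.33. The mean lay within the spread between animals of 1 genotype, an SD of 0.21. The members were chosen with results known, so this difference got no test. As a description, 1 of 3 sinusoidal genes and 5 of 7 vascular genes rose, with median changes of 0.48 and 1.02. Of all tested genes, 14.6% rose and the median change was -0.13. The vascular count and median include Tek, and nothing is read from the contrast of the classes. The difference between the classes rested in part on Kdr, as it was -0.48 without that gene, and on the background correction, as it was 0.29 after normexp. It rested on Tek too, whose rise of 1.50 lay above the vascular mean of 0.76 and so widened it. Tek passed the detection filter only through Rbpj-/- liver, where it was high, and the difference without Tek is not given here.

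Promoters are shown for Kdr and Tie1, the 2 genes of those found in the promoter table in which the RBPJ motif GTGGGAA occurs, and for Clec4g and Eng, which rose and hold the ETS motif AGGAAG, the core that endothelial ETS factors such as ERG and FLI1 bind. The sequences are the 250 bases before the transcription start from RefSeq, build GRCm38.p6, on the strand of the gene, with motif matches of either strand in capitals. They were found for 6 of the 10 genes.
Kdr (chr5:75978456-75978705): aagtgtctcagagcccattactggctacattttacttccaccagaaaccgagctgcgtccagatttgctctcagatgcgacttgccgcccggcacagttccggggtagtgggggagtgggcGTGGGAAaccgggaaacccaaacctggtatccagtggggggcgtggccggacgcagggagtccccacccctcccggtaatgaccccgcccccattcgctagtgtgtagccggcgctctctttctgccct
Tie1 (chr4:118489850-118490099): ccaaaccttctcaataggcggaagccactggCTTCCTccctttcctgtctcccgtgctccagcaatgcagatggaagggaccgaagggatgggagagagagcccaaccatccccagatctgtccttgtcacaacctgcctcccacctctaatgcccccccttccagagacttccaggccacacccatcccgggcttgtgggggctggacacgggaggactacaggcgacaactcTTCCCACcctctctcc
Clec4g (chr8:3720652-3720901): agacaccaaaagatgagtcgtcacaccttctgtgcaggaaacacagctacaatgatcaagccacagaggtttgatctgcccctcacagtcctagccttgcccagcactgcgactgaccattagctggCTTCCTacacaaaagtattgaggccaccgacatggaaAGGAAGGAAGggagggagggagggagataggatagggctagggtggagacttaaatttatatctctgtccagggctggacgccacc
Eng (chr2:32646345-32646594): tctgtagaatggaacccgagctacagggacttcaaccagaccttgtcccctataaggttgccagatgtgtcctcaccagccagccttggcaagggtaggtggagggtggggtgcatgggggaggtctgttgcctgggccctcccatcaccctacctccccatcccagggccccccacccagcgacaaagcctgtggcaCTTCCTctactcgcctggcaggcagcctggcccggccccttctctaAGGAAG

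In Kdr, GTGGGAA lay 129 to 123 bases before the start, and in Tie1 its reverse complement TTCCCAC lay 16 to 10 bases before the start. Clec4g held 3 matches of the ETS motif, 2 of which overlap, Eng held 2 and Tie1 held 1. Stab2 held 1 ETS match, Tek held none of the motifs, and the GATA motif AGATAA occurred in none of the 6. Of 32817 mouse promoters of the same length, 5.42% hold GTGGGAA, 29.5% hold AGGAAG and 9.99% hold AGATAA on either strand. These matches are letters in a window, and whether RBPJ or ETS factors bind them in these livers was not tested. AlfpCre, which deletes Rbpj here, is active in the hepatoblast lineage, as given at the start.

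The ligands and partner receptors of these receptors were 13 genes, of which 11 were tested and 1 was called, against 34.2% of all tested genes. This was Nrp2, a VEGF co-receptor, which rose by 0.61 (limma adjusted p = 0.098) with -/-_N5 inside the Rbpj+/+ range and lost the call in 12 of 20 other ways of processing. The VEGF family reaches Kdr and its sister receptors. Vegfa differed by -0.46 (limma adjusted p = 0.134), with Rbpj+/+ values of 3.30, 3.48, 3.44 and 2.87 and Rbpj-/- values of 2.85, 2.79 and 2.79. All Rbpj-/- values were below the Rbpj+/+ ones, and a second, dimmer probe of Vegfa fell by 0.85 (limma adjusted p = 0.0278).

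Vegfb, Vegfc and Vegfd differed by 0.14, 0.43 and 0.26, and Pgf, placental growth factor, by -0.78, without passing the test. Nrp1, the other neuropilin, differed by -0.37. Of the angiopoietins, Angpt2 differed by 0.22 (limma adjusted p = 0.43), and Angpt1 was too dim to be tested. For the endoglin system, Gdf2, which encodes BMP9 and is made in the liver, differed by 0.20, the type I receptor Acvrl1 by 0.45 and the type II receptor Bmpr2 by 0.36, none of them called. Bmp10 was too dim to be tested.

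The other genes of endothelial cells were described by lists that hold none of the 10 genes. Of 43 tested genes in 3 lists, 23 rose and 1 fell, where 14.6% of all tested genes rose and 19.6% fell. The median log2 change was 0.69 against -0.13 over all tested genes. Of the 39 that were well above background on all 7 arrays, 19 rose and 1 fell. Of all 16544 genes detected on all 7 arrays, 2062 rose and 3442 fell. The count of rises dropped to 14 without -/-_N3 and to 7 without the filter on dim probes, where the calls over all genes fell too.

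Of 15 other sinusoidal genes, 7 rose and none fell, with a median change of 0.53. Clec1b, which encodes the podoplanin receptor CLEC-2, rose most in this list. It stood at 1.66, 2.004, 1.69 and 1.70 in the Rbpj+/+ animals and 3.70, 3.40 and 3.39 in the Rbpj-/- animals, without overlap, a rise of 1.74 (SE 0.19, limma adjusted p = 0.000955) that its other probes gave as 1.67 and 1.73. Clec1b is also a platelet gene, and the part of platelets or of other liver cells in its rise was not tested. Fcgr2b, the inhibitory Fc receptor that sinusoidal cells use to clear immune complexes, rose by 1.42 (limma adjusted p = 0.00302), and Wnt9b, a Wnt ligand of central and sinusoidal endothelium, by 1.39 (limma adjusted p = 0.0138). Wnt9b was well above background in 3 of 4 Rbpj+/+ animals and passed the detection filter through Rbpj-/- liver, where it was high, and after normexp it differed by 0.20 (limma adjusted p = 0.317).

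Mrc1, the mannose receptor, Flt4, the receptor for VEGF-C, F8, coagulation factor VIII, and Gpr182 rose by 1.08, 1.08, 1.05 and 0.79. The other 8 genes were not called. Stab1, the sister scavenger receptor of Stab2, differed by 0.53 (limma adjusted p = 0.111). The BMP and Wnt signals Bmp2, Rspo3 and Wnt2 differed by 0.01, -0.00 and -0.55, the transcription factor gene Gata4 by 0.13, and Oit3, Ehd3 and Dnase1l3 by 0.11, 0.06 and -0.44. The sinusoidal list thus divided, as the 3 sinusoidal genes did, into genes that rose and genes that did not pass the test.

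Of 20 tested pan-endothelial genes, 10 rose and 1 fell, with a median change of 0.57. Cd93, a transmembrane lectin-like receptor, rose most. It was 1.57, 2.15, 2.23 and 2.02 in the Rbpj+/+ animals and 4.65, 3.92 and 3.69 in the Rbpj-/- animals, a rise of 2.09 (SE 0.28, limma adjusted p = 0.002) with no overlap. Ecscr, an endothelial surface protein, rose by 1.53 (limma adjusted p = 0.00222) and the ETS factor gene Fli1 by 1.11 (limma adjusted p = 0.013). Erg, the other ETS factor gene, differed by -0.79 with overlapping genotypes (limma adjusted p = 0.103). The SOXF factor genes Sox18, Sox7 and Sox17 rose by 0.95, 0.85 and 0.69, though a second probe of Sox17 gave 0.20 (limma adjusted p = 0.558). For Sox7 the genotypes overlapped (limma adjusted p = 0.0962, exact permutation p = 0.114). Rises were also called for Icam2, Clec14a, Esam and Nos3, of 0.81, 0.77, 0.72 and 0.57. For Nos3 the genotypes overlapped by this probe, while its dimmer probe rose by 0.77 without overlap (limma adjusted p = 0.0536).

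S1pr1, the receptor for sphingosine 1-phosphate that stabilises endothelial junctions, was the gene of these 3 lists that fell by its brightest probe. It was 3.26, 3.04, 4.04 and 3.34 in the Rbpj+/+ animals and 2.42, 2.13 and 2.59 in the Rbpj-/- animals. Every Rbpj-/- animal was lower, and the fall was 1.04 (SE 0.27, limma adjusted p = 0.0249). Hepatocytes and lymphocytes also express S1pr1. Flt1, which encodes VEGFR1, Robo4 and Ptprb differed by 0.08, -0.06 and -0.09 and were not called. A second, dimmer probe of Ptprb, which encodes the phosphatase VE-PTP of endothelial junctions, fell by 1.02 without overlap (limma adjusted p = 0.0313), so the probes of this gene disagree.

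Of 8 tested genes of continuous or activated endothelium, 6 rose and none fell, with a median change of 1.24. The adhesion molecule genes led this list. Vcam1 was 2.33, 1.88, 2.42 and 2.29 in the Rbpj+/+ animals and 4.60, 4.61 and 3.40 in the Rbpj-/- animals, a rise of 1.97 (SE 0.32, limma adjusted p = 0.00432) that a second probe gave as 1.81. Selp, which encodes P-selectin and like Vwf lies in the storage granules of endothelial cells and in platelets, was well above background in 1 of 4 Rbpj+/+ and 3 of 3 Rbpj-/- animals and rose by 2.05 (limma adjusted p = 0.00528). After normexp it differed by 0.33 (limma adjusted p = 0.214). Icam1 was well above background in 2 of 4 Rbpj+/+ animals and rose by 2.08 (limma adjusted p = 0.0581), with overlapping genotypes, an exact permutation p of 0.114 and a change of 0.50 after normexp. Selp, Icam1 and Emcn passed the detection filter only through Rbpj-/- liver, where they were high. They are part of this list's count of rises and its median, so nothing is read from either. Of the genes well above background on all 7 arrays, Vcam1, Ackr1 and Cd34 rose, and Esm1 and Plvap were not called.

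Ackr1, a chemokine-binding receptor of venules, rose by 1.52, Cd34 by 0.97 and Emcn, with 2 of 4 Rbpj+/+ arrays well above background, by 0.69. Esm1 differed by 0.33 and was not called. Plvap, a diaphragm protein of endothelial cells, was not called by its brighter probe at 0.48 (limma adjusted p = 0.177). It rose by 0.77 by its second probe (limma adjusted p = 0.0231). Sele, Apln and Aplnr did not pass the detection filter.

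**Figure D4:**
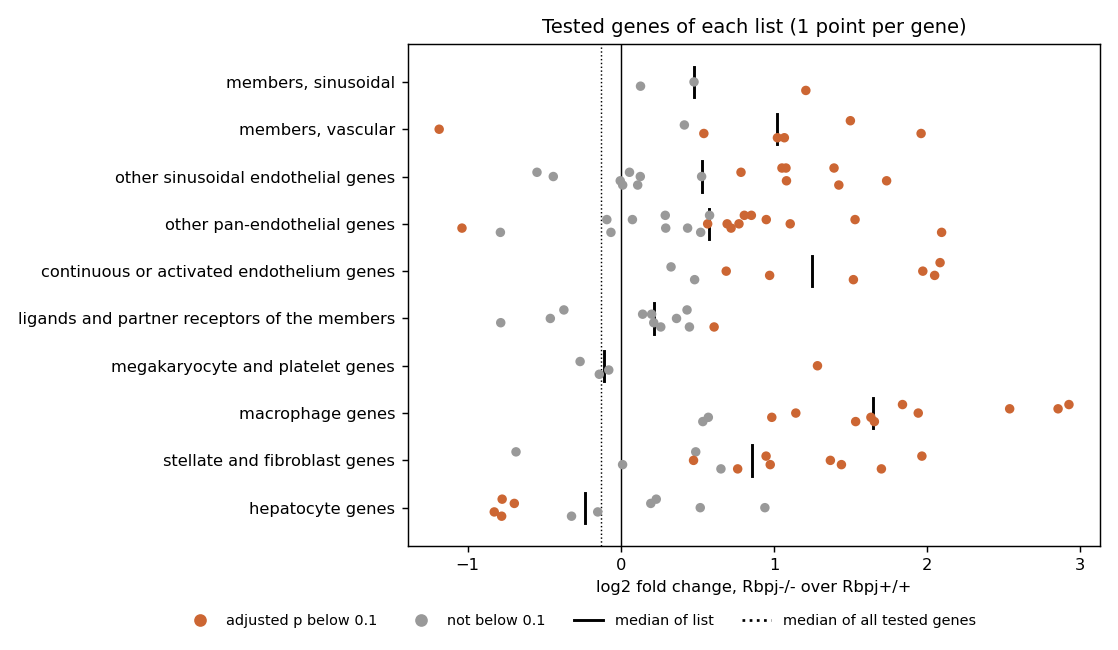
Log2 change of each tested gene in Rbpj-/- over Rbpj+/+ liver (x axis), 1 point per gene read by its brightest probe, in orange where the limma adjusted p was below 0.1, with a black bar at the median of each list and a dotted line at -0.13, the median of all tested genes. The medians of the 2 groups of the 10 genes and of the sinusoidal, pan-endothelial and continuous or activated lists lie between 0.48 and 1.24. That of the macrophage genes lies at 1.64 and that of the hepatocyte genes at -0.24. The lists include genes that passed the detection filter only through Rbpj-/- liver, where they were high, among them Tek, Wnt9b, Selp, Icam1 and Emcn.

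Markers of other cells moved as well, and their part in the endothelial results was not tested. Of 12 macrophage genes 10 rose, led by Marco (2.93) and Lyz2 (2.85), and their summed linear signal was 121 to 158 in Rbpj+/+ and 416 to 527 in Rbpj-/- animals. Of 12 stellate and fibroblast genes 8 rose, led by Lum (1.97) and Acta2 (1.70), with summed signals of 138 to 213 and 271 to 339. Of 10 hepatocyte genes 4 fell, among them Apoa1 (-0.83) and Alb (-0.78), and 6 were not called, with a median change of -0.24. Of those 6, Cps1, Tat, G6pc and Tdo2 differed by 0.94, 0.52, 0.23 and 0.20, and Hnf4a and Pck1 by -0.32 and -0.15. The summed signals, in which bright probes such as that of Alb weigh most, were 2547 to 3335 and 1896 to 2165. All 5 proliferation genes rose, led by Top2a (3.61), which was well above background in 1 of 4 Rbpj+/+ animals and passed the filter through Rbpj-/- liver.

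Of 7 leukocyte genes 4 rose, S100a8 by 2.62, and 3 fell. Of 6 tested cholangiocyte genes Spp1 (1.66) and Sox9 (1.32) rose, Sox9 with overlapping genotypes (limma adjusted p = 0.0842). Of 3 tested lymphatic genes only Flt4 rose, with Prox1 at -0.54 and Pdpn at -0.20, and of 4 tested erythroid genes Alas2 fell by 2.13. Vcam1, Icam1, Mrc1 and Fcgr2b are expressed by macrophages or stellate cells too. The summed signal of the 3 sinusoidal genes was 36.7 to 55.0 in Rbpj+/+ and 70.0 to 114 in Rbpj-/- animals. That of the 7 vascular genes was 20.6 to 30.1 and 28.9 to 36.6. Such sums weight each gene by the brightness of its probe, so they are not compared with each other. The brightest vascular probe in Rbpj+/+ animals was the 1-spot probe of Kdr, a gene for which no direction is given. On the log2 scale, where every gene counts alike, the mean shifts in Rbpj-/- animals were 0.61 and 0.76.

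**Figure D5:**
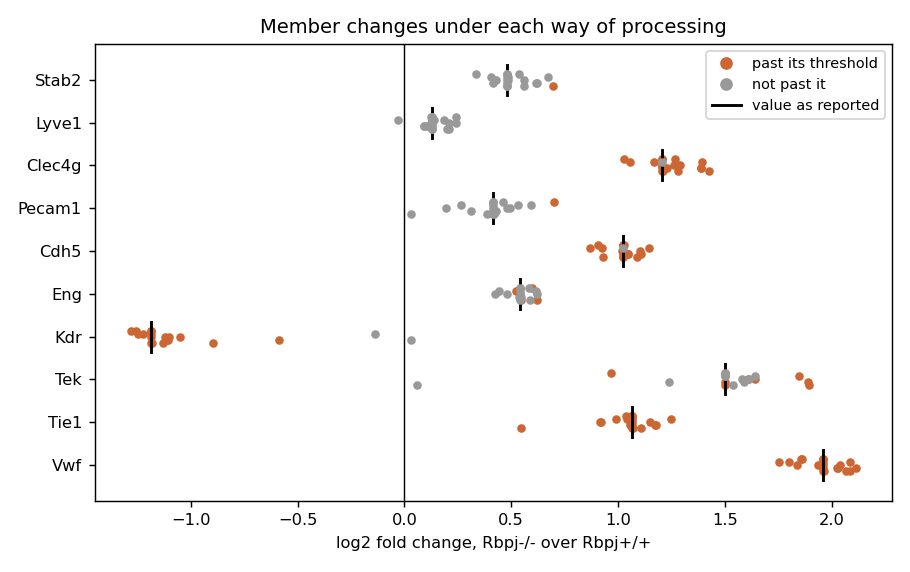
Log2 change of each endothelial gene in Rbpj-/- over Rbpj+/+ liver (x axis) under each of 20 alternative ways of processing (19 for Tek, which was not detected on all 7 arrays), in orange where the change passed the threshold, with a black line at the value as reported. Vwf stays between 1.75 and 2.12 and Tie1 between 0.55 and 1.25 with every point past its threshold, Eng and Tek carry points of both colours, and Kdr has 2 points near 0 where its second probe was read.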

How the data were processed

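Total RNA of whole liver was labelled with Cy3 and hybridised to Agilent SurePrint G3 Mouse 8x60K arrays, 1 animal per array (4 Rbpj+/+, 3 Rbpj-/-). The intensity values deposited by the authors are background-subtracted, detrended spot signals from Feature Extraction 10.7.3.1 per the labels, not scaled between arrays. Per the file headers, probe coordinates are those of mm9. The log2 values of the series matrix, normalized between arrays and centred on each probe's median by the authors, served as an alternative. The methods of the study state a 75th percentile shift, a shrinkage t statistic and a false discovery rate of 0.1.

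Spots with a non-uniformity or population outlier flag were removed (146 probe values), no spot was saturated, and spots of 1 probe were averaged. From log2 intensity the 75th percentile of the array was subtracted. A probe was tested if every array of 1 genotype or the other had it well above background (24548 probes), over all 7 arrays with limma 3.58.1 in R 4.3.3, without covariates, and p-values were adjusted by Benjamini-Hochberg over all of them. A gene was read by its brightest tested probe (18782 genes), and the symbols of 28331 probes came from their RefSeq accessions. In simulated data the fit was tested for recovery of planted changes. The precision is limited by the number of arrays.

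The 10 genes, the gene lists and the tests were chosen with earlier results of these data known. Named besides the 10 genes were, per endothelial list, up to 3 called genes with the largest rise and up to 3 with the largest fall, all ligands and partner receptors, and up to 2 called genes per list of other cells. The other list members were named after their values were seen. In all 20 alternatives were tried, among them other background corrections, scalings, filters, tests and leaving out each animal, and 2 more for Kdr were added after the data were seen. Some genes of the lists of other cells count in the lists but are not reported here.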

Additional observations from a re-analysis of the deposited data

Results flagged for a closer look

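In 2 of the genes named by the rule above, +/+_1156 stood apart from the other Rbpj+/+ animals. Its gap to the nearest of them took most of the range of the genotype. Such a gap is passed by chance in about 1 of 20 groups. For Clec1b the gap took 0.885 of the range, with 2.004 in +/+_1156 against 1.66 to 1.70 in the other Rbpj+/+ animals, and the rise of this gene in Rbpj-/- liver was called without that animal too. For Vegfd the gap also took 0.885 of the range, with 0.29 in +/+_1156 against -0.87, -0.96 and -0.81 in the others, and the Rbpj-/- values of -0.14, -0.53 and -0.30 lay between them. +/+_1156 was 1 of the 2 arrays with brighter dim probes, and the part of this in either value was not tested.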

How the results depend on the processing

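Vwf and Tie1 kept their direction and call in all 20 alternatives that bear on them, with highest limma adjusted p of 0.0449 and 0.0934. Clec4g and Cdh5 lost the call only without the filter on dim probes (limma adjusted p = 0.107 and 0.130). Stab2 was called only after normexp (0.70, limma adjusted p = 0.0206). Of the 10 genes, 2 rose without that filter, while 7 rose at most and 4 at least when 1 animal was left out, and 0 to 1 fell. None fell when Kdr was read by its 10-spot probe (0.0130, limma adjusted p = 0.973) or left out, and the sinusoidal minus vascular shift without it was -0.48. That shift was 0.29 after normexp and ranged from -0.374 to -0.0456 with 1 animal left out. With 1 animal left out, the log2 change read for Kdr ranged from -1.28 to 0.0324, the latter without +/+_991, because its brightest probe became the 10-spot one.

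Of the other endothelial genes, 7 rose and 0 fell without the filter on dim probes, 3 fell after normexp and 2 fell with detection required on all 7 arrays or with all probes of a gene averaged. With 1 animal left out, 14 to 23 rose and 0 to 2 fell. Over all genes, 6415 were called (2743 higher, 3672 lower), against 1642 (969 higher, 673 lower) without the filter on dim probes, where 35753 genes were tested, and 3118 higher and 2853 lower after quantile normalization. Leaving out -/-_N5 gave 3722 calls. No paired analysis was possible because the animals of the 2 genotypes share no replicate numbers.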
